A study of Mus musculus with 24 samples.

Results

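Testes of 12-week-old male mice homozygous for a mutation of Smc6 were compared with testes of control mice, 4 animals a side, to ask which testis transcripts differ when this subunit is mutated. SMC6 pairs with SMC5 in a ring-shaped complex related to cohesin and condensin. Each testis was hybridised to its own Illumina MouseRef-8 bead array. All probes detected (detection p under 0.05) on at least 4 of these 8 arrays were examined, which gave 13152 of 25697 probes and 9271 of the 16593 genes on the array. The 8 testes are part of a series of 24 arrays that also covers spleen and brain. Controls 1 and 2 carried 2 normal Smc6 alleles by their mouse identifiers and controls 3 and 4 carried 1 mutant allele, although the genotype label calls all 4 wildtype. All 8 males had a mixed C57BL/6J, 129ola and Fvb background. The labels do not describe the mutant allele or any treatment. Spleens of the same 8 animals were also measured and serve below for comparison.

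The SMC5/6 complex holds sister DNA molecules together at sites of damage or stalled replication and attaches the small protein SUMO to its targets through the subunit NSMCE2. It assists repair by homologous recombination. In the testis, germ cells divide as spermatogonia and recombine their chromosomes as spermatocytes in meiosis. They then shape sperm heads and tails as haploid spermatids, beside Sertoli cells that nurse them and Leydig cells that make testosterone.

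The arrays carried testis RNA by the defining transcripts. Prm1, which encodes protamine 1 of sperm chromatin, gave a median signal of 17400 intensity units over the 8 testes and 207.4 in spleen, and Acrv1, an acrosomal protein, gave 4783 in testis and was detected in 1 of 8 spleens. Cyp17a1 and Insl3 of Leydig cells and Cst9 and Clu of Sertoli cells were detected in 8 of 8 testes. Clu was not particular to testis: it was detected in 8 of 8 spleens, with a median of 2958 units against 4702 in testis. Of the germ cell markers found in testis, Prm1 and Tnp1 were also detected in 8 of 8 spleens, Ldhc in 7 and Odf1 in 4. Sohlh1, Sycp1, Ccna1, Tnp2 and Akap4 were detected in 0 spleens. The B cell gene Cd79b and the T cell gene Cd3e were each detected in 1 of 8 testes. The spermatocyte genes Sycp3 and Hormad1 were detected in 0 of 8, and Zbtb16, Kit and Prm2 had no probe. Between 12708 and 13344 probes were detected per array, with means of 13053 ± 111 in controls and 13132 ± 297 in mutants (SD, n = 4 each; exact two-sided permutation p = 0.543, adjusted over 3 array measures 0.814, smallest possible 0.0286). The upper quartile of the signal was 98.1 ± 11.8 units in controls and 108 ± 15.7 in mutants (exact permutation p = 0.314). The arrays correlated with each other at 0.990 to 0.994 across probes.

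No probe passed the test between mutant and control testes. With limma and Benjamini-Hochberg adjustment over all 13152 probes, 0% had an adjusted p under 0.05 and the smallest adjusted p was 0.395. At an unadjusted p under 0.05 there were 629 probes, of which 308 (2.34%) were higher in mutants and 321 (2.44%) were lower, where 5% in all is what this threshold passes when nothing differs. In 171 probes (1.3%) every mutant lay above every control, and in 185 (1.41%) every mutant lay below. The number of higher probes was 6585, or 50.1%, and the median difference was 0.00 on the log2 scale. These differences, and those below unless a tissue or genotype is named, are mutant minus control in log2 intensity.

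How closely the differences were bounded depended on the scale. Normalization added an offset of 16 to every signal, which compresses dim values, and on this scale, of the 95% confidence intervals, 96.8% stayed inside 1.5-fold in both directions and 99.7% inside 2-fold, and the median standard error (SE) of a difference was 0.11. Dim probes were less precise. Among the 4384 dimmest probes the median SE was 0.12 and 7.19% had an unadjusted p under 0.05, against 0.09 and 2.05% among the 4384 brightest. On this scale 20 probes differed by more than 1.5-fold, 17 of them higher in mutants. The authors' deposited normalized values were also used, in log2 after values under 8 were set to 8, a floor chosen here. On these 382 probes did, 219 of them higher and 0 of them called by limma, and 75.4% of the intervals stayed inside 1.5-fold. With an offset of 50 there were 9. Of the 20 probes, 6 belonged to pancreatic enzyme genes that were high in 1 mutant, 2 were probes of Cfap69, which separated the controls by genotype, and 8 had an unadjusted p under 0.05.

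**Figure D1:**
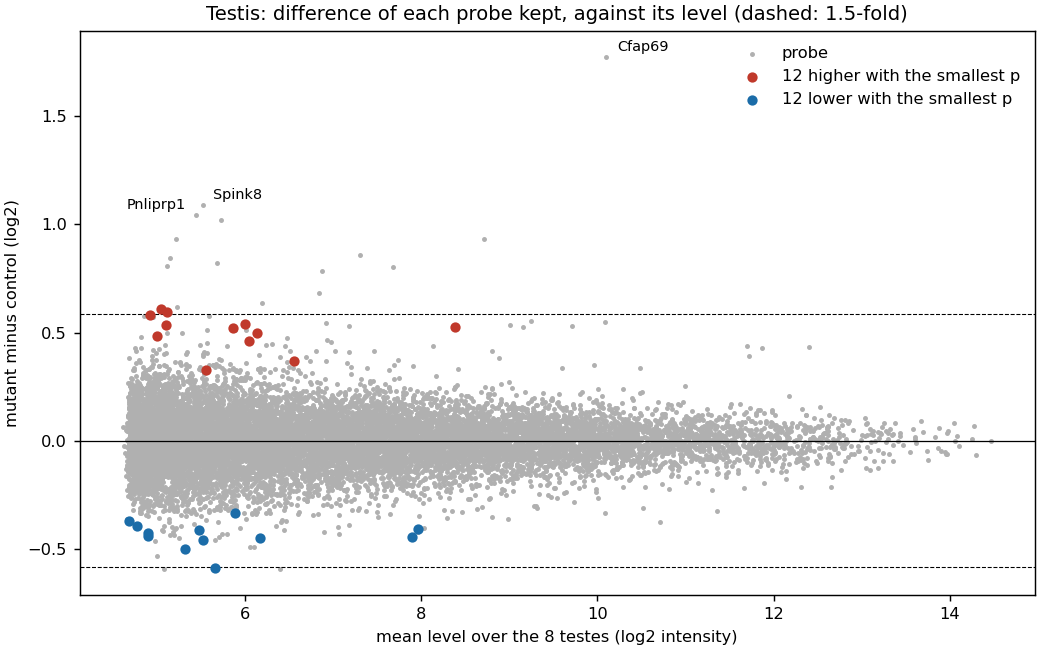
Mutant minus control difference of each of the 13152 probes (vertical axis, log2) against its mean level over the 8 testes (horizontal axis, log2 intensity). The grey cloud is centred on 0 and narrows with level. The 24 coloured probes, those with the smallest p in each direction, lie mostly at dim levels, and the labelled genes are those with a difference above 1.

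The transcript of Smc6 itself was measured by 1 probe and did not separate the groups. It read 7.93, 8.17, 8.18 and 8.29 in controls 1 to 4 and 8.26, 8.13, 7.96 and 8.09 in mutants 1 to 4. The groups overlapped, and the mutants lay inside the range of the controls. The difference was -0.04 (SE 0.10, interval -0.26 to 0.18). Since the labels do not say what the allele does to the transcript, this value does not check the genotypes.

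Of the 9 genes on the SMC5/6 list, 6 were on the array and 5 passed the detection rule. Smc5, the partner subunit, differed by 0.02 (SE 0.15). Nsmce1, a subunit with a RING domain, read 11.96 ± 0.06 in controls and 12.08 ± 0.08 in mutants (SD, n = 4 each), a difference of 0.12 (SE 0.08). Eid3, a germline form of the NSMCE4 subunit, differed by -0.09 (SE 0.10). The intervals of these 3 genes all included 0.

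Nsmce2, the SUMO ligase of the complex, was covered by 3 probes that disagreed. The dimmest probe was among the 12 lower probes with the smallest p. It read 5.72, 6.09, 5.74 and 6.26 in controls and 5.25, 5.30, 5.30 and 5.60 in mutants, and the means differed by -0.59 (SE 0.13, adjusted p = 0.831 in limma). The brightest probe read 9.30 ± 0.03 in controls and 9.35 ± 0.08 in mutants, and its difference of 0.05 (SE 0.08) had an interval of -0.13 to 0.22. The probe between them differed by -0.17 (SE 0.13). The dim probe alone separated all mutants from all controls, and the interval of the brightest probe included 0.

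Of the genes beside Smc6 on chromosome 12, 4 were measured among the 25 to each side. Nt5c1b, a cytosolic nucleotidase, differed by 0.08 (SE 0.09), Rdh14, a retinol dehydrogenase, by -0.01 (SE 0.10), Vsnl1, a neuronal calcium sensor, by -0.12 (SE 0.14), and Cyria by 0.22 (SE 0.14). None of these separated from 0. The median difference by chromosome ran from -0.05 on Y, with 9 probes, to 0.01 on chromosome 14.

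The 12 genes higher in mutants with the smallest p differed by 0.33 to 0.61, and none passed the adjusted threshold. In all 12 the groups did not overlap, which the choice by p largely fixes. Among these and the 12 lower genes below, 8 of 24 were not detected in all 8 testes (Rgs6, Hp, Bclaf3, Slc44a1, Swap70, Btg3, Tardbp and Tnni3). Each was detected in all 4 animals of the group in which it was higher, which alone meets the detection rule. In the other group it was detected in 0 (Swap70, Tnni3) to 3 animals (Rgs6, Slc44a1), so the differences and p of these genes depend on that rule. The first was Rgs6, a regulator that shortens G protein signals. It read 4.64, 4.96, 4.79 and 4.89 in controls and 5.40, 5.35, 5.51 and 5.41 in mutants. The difference was 0.60 with an SE of 0.09 and an interval of 0.40 to 0.80 (adjusted p = 0.395 in limma). The 4 mutants lay close together and above every control, although the probe was detected in 3 of 4 controls and was dim in all 8 testes. Dpf3, a subunit of BAF chromatin remodelling complexes and the next protein-coding gene to Rgs6 on chromosome 12, was the brightest of the 12. Its values were 7.75, 8.26, 8.31 and 8.19 in controls and 8.56, 8.73, 8.80 and 8.51 in mutants, which differ by 0.52 (SE 0.13, adjusted p = 0.831 in limma). Both genes were thus higher in every mutant than in every control, and in spleen both were below the detection rule. Among the 24 genes the next closest pair, Srm and Tardbp on chromosome 4 with 1 protein-coding gene between them, differed in opposite directions (0.54 and -0.44).

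The other higher genes with more than 1 probe, and the next brightest, are given here. Scd1, the desaturase that makes oleate, read 6.39, 6.32, 6.58 and 6.20 in controls and 6.64, 6.68, 6.83 and 6.81 in mutants, a difference of 0.37 (SE 0.10). Medag, which promotes fat cell formation, read 4.84 ± 0.07 in controls and 5.38 ± 0.24 in mutants, and its brighter probe differed the same way by 0.28 (SE 0.11). Hp, which encodes haptoglobin, differed by 0.61 (SE 0.12) on one probe and by 0.36 (SE 0.14) on another. For these 2 genes the probes had the same sign. For Srm, spermidine synthase, they did not: one probe differed by 0.54 (SE 0.12), and the other 2 by -0.02 (SE 0.13) and -0.15 (SE 0.12). Large2, a glycosyltransferase of dystroglycan, differed by 0.33 (SE 0.09) on its dimmer probe and -0.05 (SE 0.12) on its brighter one.

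The remaining 5 had 1 probe each. Retreg1, a receptor that directs endoplasmic reticulum to autophagy, read 5.82 ± 0.16 in controls and 6.28 ± 0.06 in mutants. Plce1, a phospholipase C, read 5.60 ± 0.25 and 6.12 ± 0.11, and Susd3, a membrane protein, 5.89 ± 0.09 and 6.38 ± 0.12. Slc44a1, a choline transporter, read 4.75 ± 0.16 and 5.24 ± 0.16. In these 4 genes the mutant mean exceeded the control mean by 0.46 to 0.52, and the fifth, Bclaf3, is described with the spleen below.

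**Figure D2:**
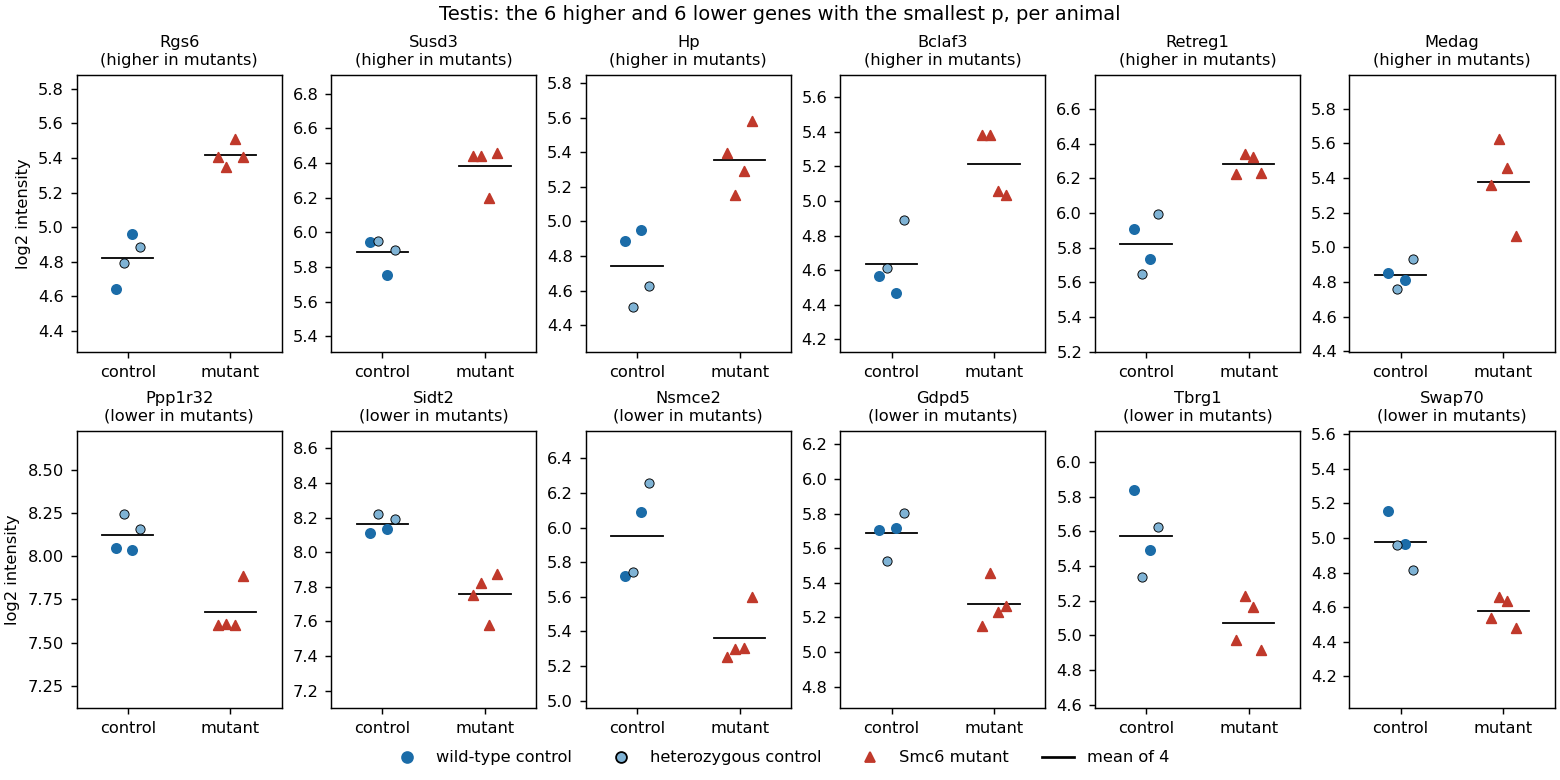
Level of the 6 higher and 6 lower genes with the smallest p (vertical axes, log2 intensity, each spanning 1.6 units) in each animal, with wild-type and heterozygous controls and mutants marked apart and a line at each mean of 4. In each panel the mutants and controls do not overlap.

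The 12 genes lower in mutants with the smallest p differed by -0.34 to -0.59, again with no overlap between groups and no adjusted p under the threshold. The 2 brightest were Ppp1r32, which encodes a regulatory subunit of protein phosphatase 1, and Sidt2, a lysosomal membrane protein that takes up nucleic acids. Ppp1r32 read 8.05, 8.03, 8.24 and 8.16 in controls and 7.60, 7.61, 7.60 and 7.89 in mutants, and the means differed by -0.45 (SE 0.10, adjusted p = 0.831 in limma). Sidt2 read 8.11, 8.13, 8.22 and 8.19 in controls and 7.75, 7.82, 7.58 and 7.88 in mutants, a difference of -0.41 (SE 0.09). Mutant 4 was nearest to the controls in both genes. Yet the other 2 probes of Sidt2, one of them brighter, differed by -0.05 (SE 0.14) and -0.04 (SE 0.09).

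Such disagreement between probes of a gene recurred among the lower genes. Msh3, a mismatch repair protein, differed by -0.46 (SE 0.11) on one probe and by 0.18 (SE 0.15) on a dimmer one. Tbrg1, a growth regulator, differed by -0.50 (SE 0.12) at a level of 5.32 and by -0.07 (SE 0.08) on a probe that averaged 10.32. Tardbp, the RNA-binding protein TDP-43, differed by -0.44 (SE 0.11) on its dimmest probe and by -0.19 (SE 0.13) and -0.15 (SE 0.08) on the other 2, so its 3 probes shared a sign. Swap70, a signalling protein of B cells, was not detected in any mutant on its probe with the smallest p. The controls were at least 1.19-fold brighter there (means 4.97 and 4.58, limma adjusted p = 0.831), and its other 2 probes differed by 0.19 (SE 0.13) and 0.02 (SE 0.22).

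The rest of the lower genes had 1 probe each. Tnni3, cardiac troponin I, was also undetected in all 4 mutants, and the controls were at least 1.10-fold brighter (means 4.87 and 4.50, limma adjusted p = 0.897). The bound sets each undetected value to the lowest level of any detected probe on its array. Btg3, an antiproliferative factor, was detected in 1 of 4 mutants, so its difference of -0.43 (SE 0.10) rests on a mutant mean near background. Gdpd5, a phosphodiesterase of glycerol lipids, differed by -0.41 (SE 0.10), Tmem91, a transmembrane protein, by -0.34 (SE 0.08) and AI837181 by -0.45 (SE 0.11). Of the 24 genes, 8 of the higher and 9 of the lower had a mean level under 6. The 4384 dimmest probes lie between 4.62 and 5.87, and Srm (5.998) and Tmem91 (5.89) were just above that range.

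The spleens of the same animals gave a second measurement of some of these genes. Of the 12 higher genes 8 were measured in spleen, and 2 of them differed in the same direction there. Of the 12 lower genes 7 were measured, and 4 had the same direction. Whether the mutant effect differed between testis and spleen was tested by an interaction contrast on the 10313 probes kept in both tissues, with the animal as a random block. It called 1 probe (0.0097%), and 265 probes had an unadjusted p under 0.05. That is a smaller share of the 10313 than the 5% this threshold passes when nothing differs.

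That probe measures Bclaf3, an X-linked relative of the transcription factor Bclaf1. In testis it read 4.57, 4.47, 4.61 and 4.89 in controls and 5.38, 5.38, 5.06 and 5.04 in mutants, a difference of 0.58 (SE 0.12). In the spleens of the same animals it read 5.60, 5.60, 5.76 and 5.61 in controls and 5.23, 5.20, 5.10 and 4.94 in mutants, a difference of -0.53 (SE 0.12). The groups did not overlap in either tissue, and the directions were opposite. The difference between the effects was 1.11 (SE 0.16, limma adjusted p = 0.0214). Neither effect passed the threshold within its tissue. Only 1 of 4 control testes had the probe detected, so the testis difference and the interaction rest on a control mean near background. Leaving out 1 animal at a time kept the direction in 8 of 8 fits, which groups without overlap in both tissues fix in advance. The limma adjusted p ran from 0.0231 to 0.266, above 0.05 in 7 of these fits.

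The 2 contrasts that involve the heterozygous controls held larger differences than the comparison of mutants with the pooled controls. Between heterozygous and wild-type controls 3 probes passed (0.0228%), between mutants and heterozygous controls 2 (0.0152%), and between mutants and wild-type controls 0 (0%). At an unadjusted p under 0.05 these limma contrasts held 784, 658 and 710 of the 13152 probes. These shares lie near the 5% that this threshold passes when nothing differs. The first 2 contrasts share the heterozygous animals, and the wild-type and heterozygous groups had 2 animals each.

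Both probes of Cfap69, a protein of the sperm flagellum, were among these calls. The brighter probe read 11.62 and 11.71 in the wild-type controls, 6.44 and 7.09 in the heterozygous controls, and 10.84, 10.83, 10.89 and 11.40 in the mutants. The heterozygous controls were the low animals, and the mutants lay near the wild type. The heterozygous level fell by 4.90 from wild type (SE 0.23, limma adjusted p = 3.23e-06), a 29.8-fold difference, and the mutants rose by 4.22 above the heterozygous controls (SE 0.20, limma adjusted p = 3.38e-06). The other probe read 9.97 and 9.49, then 6.62 and 6.91, then 9.00, 8.98, 9.02 and 9.72. On it the heterozygous level fell by 2.96 from wild type (SE 0.25, limma adjusted p = 8.22e-04). Mutants differed from wild type by -0.67 (SE 0.20) on the brighter probe, which did not pass (limma adjusted p = 0.807). Cfap69 therefore did not order with the number of mutant Smc6 alleles.

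In the pooled comparison these controls gave Cfap69 a difference of 1.77 with an SE of 1.01, the largest of all 13152 probes, and an adjusted p of 1.00. Of its neighbours on chromosome 5, chosen after the values were seen, 3 genes within 10 positions were measured. Cdk14, a cyclin-dependent kinase, read 5.69 and 5.90 in wild-type, 6.79 and 6.77 in heterozygous and 6.30, 6.54, 6.27 and 5.95 in mutant testes, where the heterozygous difference from wild type of 0.98 (SE 0.17) did not pass (limma adjusted p = 0.317). Cldn12 and Steap2 differed between these controls by -0.06 (SE 0.21) and 0.11 (SE 0.13).

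Apoh, the plasma protein beta-2-glycoprotein I, showed another order of the genotypes. It read 6.48 and 6.47 in wild-type controls, 5.55 and 5.36 in heterozygous controls and 5.52, 5.63, 5.65 and 5.78 in mutants. Both genotypes with a mutant allele lay below both wild-type animals. The heterozygous level fell by 1.02 from wild type (SE 0.13, limma adjusted p = 0.0336) and the mutant difference from wild type of -0.83 did not pass (SE 0.11, limma adjusted p = 0.174). Leaving out 1 animal at a time ended this call in 7 of 8 fits. Next by p came Ubxn10, a protein of cilia, and Trim38, a regulator of innate immunity, with heterozygous differences from wild type of -0.79 (SE 0.12) and 0.75 (SE 0.13), neither of which passed.

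**Figure D3:**
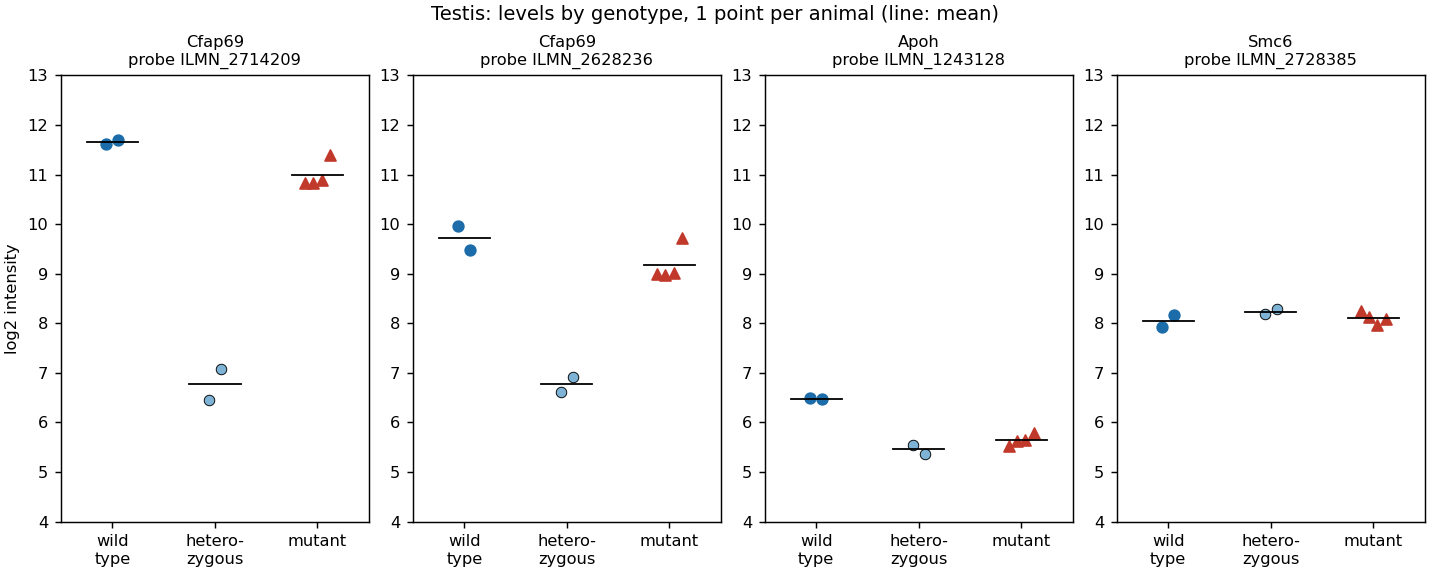
Level in each testis (vertical axis, log2 intensity, same scale in each panel) of both Cfap69 probes, Apoh and Smc6 in wild-type controls, heterozygous controls and mutants, with a line at each mean. The heterozygous controls are the low animals for Cfap69, the wild-type controls are the high animals for Apoh, and the Smc6 values overlap.

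Germ cell genes were described in lists, each gene by its brightest probe, beside the same counts over all 9271 genes, of which 51.2% were higher and whose median was 0.00. In a whole testis, fewer cells of a type and less RNA per cell cannot be told apart. Of 20 spermatogonial genes 9 were measured, 3 higher and 6 lower, with a median of -0.08 that ranged from -0.16 without control 4 to -0.02 without control 2. Sohlh2, a transcription factor of differentiating spermatogonia, read 5.04, 4.75, 4.86 and 4.74 in controls and 5.37, 5.11, 5.16 and 5.13 in mutants, a difference of 0.35 (SE 0.10). Etv5, a factor needed to keep spermatogonial stem cells, differed in the other direction by -0.38 (SE 0.14), and its groups overlapped. Id4, a marker of spermatogonial stem cells, differed by -0.18 (SE 0.14) and Sohlh1 by -0.08 (SE 0.10).

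Of 37 genes of meiotic prophase 17 were measured, 9 higher and 8 lower, with a median of 0.02. Msh4 and Msh5, partners that stabilise crossover intermediates, were both higher. Msh4 read 7.20, 6.92, 6.95 and 7.10 in controls and 7.34, 7.45, 7.40 and 7.22 in mutants, a difference of 0.31 (SE 0.09), and Msh5 read 5.48, 5.83, 5.88 and 5.92 against 6.02, 6.07, 5.99 and 6.06, a difference of 0.26 (SE 0.10). Psmc3ip, which helps the recombinase DMC1 invade DNA, was lower: 11.77, 11.77, 11.76 and 11.78 in controls and 11.43, 11.67, 11.56 and 11.54 in mutants, a difference of -0.22 (SE 0.08). These 3 genes, 2 higher and 1 lower of 17, had groups that did not overlap, beside 1.3% and 1.41% of all probes, and adjusted p of 0.976 to 1.00 in limma. Spo11, the enzyme that cuts DNA to start recombination, differed by 0.15 (SE 0.10), and Sun1, which tethers telomeres to the nuclear envelope, by -0.02 (SE 0.08). Of 14 measured late spermatocyte genes 10 were higher, with a median of 0.03. The testis lactate dehydrogenase Ldhc differed by -0.07 (SE 0.08).

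Spermatid genes had narrow bounds. All 7 measured genes of chromatin compaction had negative differences, from -0.13 to -0.00 with a median of -0.04, and none had an unadjusted p under 0.05. Tnp1, a transition protein that replaces histones before protamines arrive, read 13.18, 13.25, 13.12 and 12.89 in controls and 12.82, 13.10, 13.01 and 12.99 in mutants. Its difference of -0.13 (SE 0.10) was within the spread. Prm1 read 14.06 ± 0.05 in controls and 14.06 ± 0.02 in mutants. The widest interval in this list reached 1.27-fold. Quantile normalization gives the brightest probes nearly the same values on every array, so the small SDs at this end of the scale are partly set by it.

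The promoters of Prm1 and Tnp1 are shown because they carry the element that activates haploid genes in round spermatids through the factor CREM. The windows run 5′ to 3′ from 250 bases before to 50 bases after the start of transcription (RefSeq, GRCm38.p6). Capitals mark the match to TGACNTCA read on either strand. They lie on the minus strand at chr16:10796774-10797073 and chr1:73015850-73016149.
Prm1: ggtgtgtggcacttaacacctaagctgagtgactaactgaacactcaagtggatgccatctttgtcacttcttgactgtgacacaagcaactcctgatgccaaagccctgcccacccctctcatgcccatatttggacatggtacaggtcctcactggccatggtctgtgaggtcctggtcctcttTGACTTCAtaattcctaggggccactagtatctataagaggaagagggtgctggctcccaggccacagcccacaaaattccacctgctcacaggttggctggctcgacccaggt
Tnp1: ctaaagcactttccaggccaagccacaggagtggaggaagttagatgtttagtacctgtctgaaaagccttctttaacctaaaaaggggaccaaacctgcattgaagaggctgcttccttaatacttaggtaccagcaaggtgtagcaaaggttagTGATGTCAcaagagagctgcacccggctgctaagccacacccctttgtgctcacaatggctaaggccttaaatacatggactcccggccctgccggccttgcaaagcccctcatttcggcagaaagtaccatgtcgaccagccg
The match begins 64 bases before the start in Prm1 and 94 in Tnp1. Not every germ cell gene whose window was read held it. Prm3 and Smcp did, Tnp2, Prm2, Acrv1 and Ldhc did not, and Akap4 had windows with and without it. The match occurs in 8.83% of all 32851 windows of this length. Among 7600 measured genes with a window, 707 held it, and 47.5% of these were higher in mutants with a median of -0.01, against 51.7% and 0.00 among the others. A match is a description of letters and not of binding.

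The other lists of spermatid genes lay as close to 0. Of 23 measured sperm tail genes 12 were higher and 11 lower, with a median of 0.01. Catsper1, a pore subunit of the sperm calcium channel, read 9.08, 9.10, 9.02 and 9.16 in controls and 8.65, 8.82, 9.05 and 8.83 in mutants, a difference of -0.25 (SE 0.10). Odf1 of the outer dense fibres differed by -0.05 (SE 0.09). Of 17 acrosome and fertilisation genes 9 were higher, with a median of 0.00. Tssk2, a kinase of spermatids, read 11.14, 11.07, 11.11 and 11.10 in controls and 10.98, 10.83, 10.81 and 11.03 in mutants, a difference of -0.19 (SE 0.08), and Crisp2, a protein of sperm and acrosome, differed by -0.25 (SE 0.10). In Tssk2 every mutant lay below every control. The acrosomal Acrv1 differed by -0.00 (SE 0.08). Of 6 measured spermatid genes of the X and Y chromosomes 3 were higher, with a median of -0.04, and of 11 piRNA pathway genes 5 were higher, with a median of -0.00. Ddx4, the germ cell RNA helicase, differed by -0.20 (SE 0.12) and Tdrd6, of the chromatoid body, by 0.04 (SE 0.08).

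**Figure D4:**
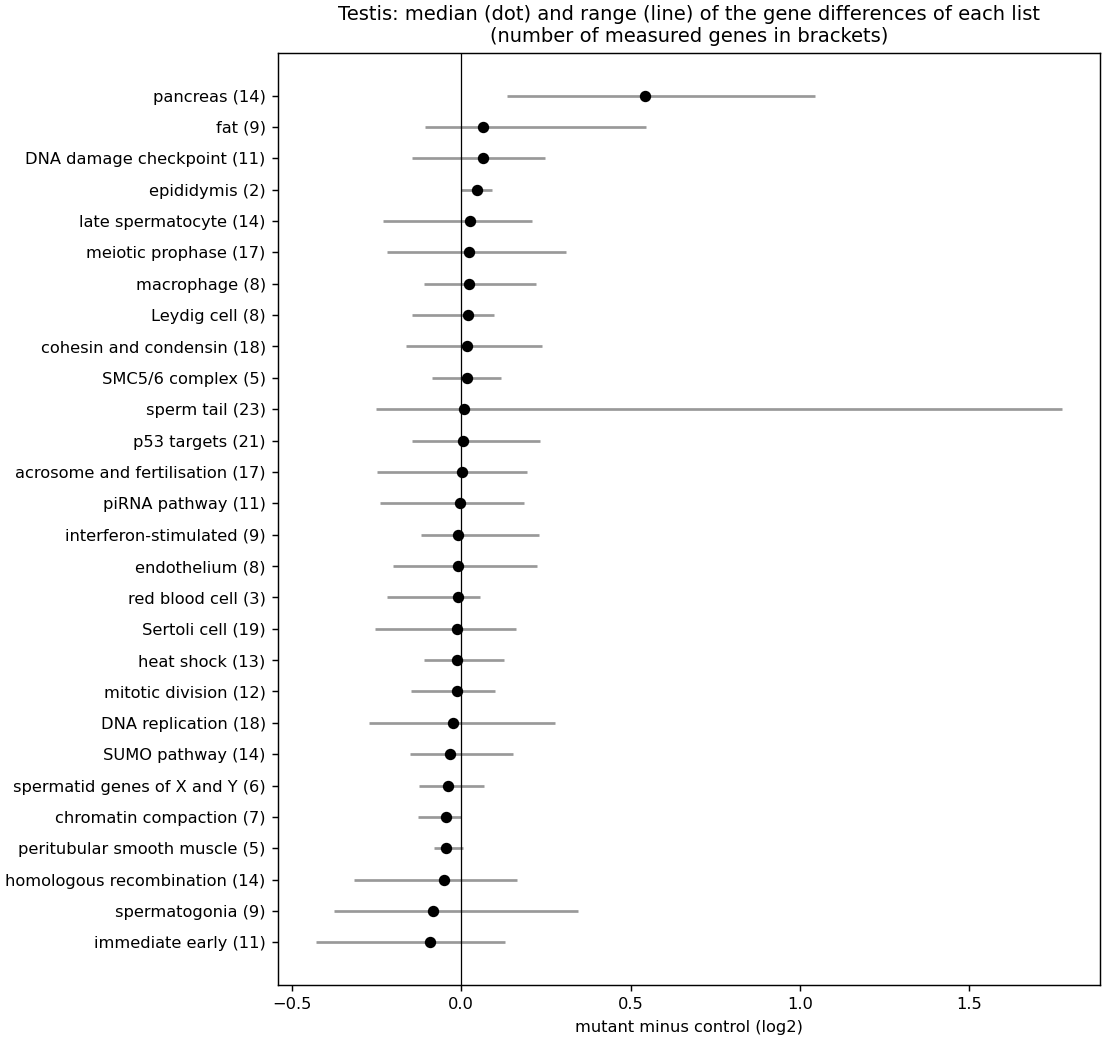
Median (dot) and range (line) of the mutant minus control differences (horizontal axis, log2) of the measured genes of each of the 28 lists, whose numbers are in brackets. The medians lie near 0 except for the pancreas list at 0.54, and the range of the sperm tail list reaches 1.77 through Cfap69.

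Lists of chromosome maintenance were examined because SMC5/6 acts there. In homologous recombination 5 of 14 measured genes were higher and 9 lower, with a median of -0.05. The lowest difference in this list was -0.32. In limma 1 of the 14 was lower at an unadjusted p under 0.05, beside 2.44% of all probes, and 0 were higher at that threshold. Blm, the helicase that dissolves recombination intermediates, differed by 0.03 (SE 0.09), and Slx4, a nuclease scaffold, by -0.08 (SE 0.11). In the DNA damage checkpoint 9 of 11 genes were higher, with a median of 0.06 and none at an unadjusted p under 0.05. Atm, the kinase that signals breaks, differed by 0.19 (SE 0.11). Of 21 targets of p53 measured, 11 were higher, the median was 0.00, and Mdm2, its inhibitor and target, differed by 0.04 (SE 0.08).

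DNA replication was the list with most lower genes at an unadjusted p under 0.05, 3 of 18 measured, beside 2.44% of all probes. Pole, the catalytic subunit of polymerase epsilon, read 7.19, 7.18, 7.28 and 7.46 in controls and 6.99, 6.76, 7.12 and 7.15 in mutants, a difference of -0.27 (SE 0.11). Rpa2, which coats single-stranded DNA, read 6.25, 6.31, 6.29 and 6.17 against 5.96, 6.15, 6.12 and 5.96, a difference of -0.21 (SE 0.09). Prim2, a primase subunit, read 7.61, 7.70, 7.66 and 7.56 against 7.48, 7.45, 7.42 and 7.48, a difference of -0.17 (SE 0.08). In each of the 3 every mutant lay below every control, as in 1.41% of all probes, and each had an adjusted p of 1.00. Rfc4, of the clamp loader, went the other way by 0.28 (SE 0.11). The list as a whole had 6 higher and 12 lower genes and a median of -0.02, and Mcm4 and Rpa1 differed by 0.06 (SE 0.09) and -0.03 (SE 0.09).

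Relatives of SMC5/6 and the SUMO pathway did not stand apart. Of 18 cohesin and condensin genes 12 were higher, with a median of 0.02, and the meiotic cohesins Stag3 and Smc1b differed by 0.02 (SE 0.08) and 0.06 (SE 0.11). Of 14 SUMO pathway genes 6 were higher, with a median of -0.03. Senp3, a SUMO protease, read 9.94, 9.90, 10.00 and 9.89 in controls and 9.77, 9.84, 9.81 and 9.85 in mutants, a difference of -0.12 (SE 0.08). Of 12 mitotic genes 5 were higher, with a median of -0.01.

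Somatic cell genes of the testis were as close. Of 19 Sertoli cell genes 9 were higher, with a median of -0.01, and of 8 Leydig cell genes 4, with a median of 0.02. Inhbb, a subunit of inhibin and activin, differed by -0.25 (SE 0.10), and Rhox5, an X-linked homeobox gene of Sertoli cells, read 8.15, 8.18, 8.16 and 8.06 in controls and 8.26, 8.25, 8.19 and 8.36 in mutants, a difference of 0.13 (SE 0.08). Insl3 differed by -0.15 (SE 0.11) and Cyp17a1, which makes androgens, by -0.08 (SE 0.13). Of 5 smooth muscle genes 1 was higher, with a median of -0.05. The macrophage list had 5 of 8 higher (median 0.02), the endothelial list 4 of 8 (median -0.01), the red blood cell list 1 of 3 (median -0.01) and the heat shock list 6 of 13 (median -0.01). Of 9 interferon-stimulated genes 4 were higher, and Ifi27 read 8.47, 8.32, 8.34 and 8.25 in controls and 8.51, 8.58, 8.51 and 8.62 in mutants, a difference of 0.21 (SE 0.08). Of 11 immediate early genes 4 were higher, with a median of -0.09, the most negative of the 28 lists. Without 1 animal it ranged from -0.11 to -0.03. Egr1, a growth factor response gene, differed by -0.43 (SE 0.19) with 7.89 in control 2 the highest value.

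The genes that varied most between the 8 testes were not those of the groups. Besides Cfap69, the 10 genes with the largest SD held 7 genes of pancreatic digestive enzymes and secretions (Cela2a, Clps, Zg16, Pnliprp1, Rnase1, Cela1 and Try4), the predicted gene Gm5409, and Spink8. Cela2a, an elastase, read 6.54, 5.84, 7.29 and 6.26 in controls and 9.56, 7.36, 6.25 and 5.89 in mutants. Mutant 1 was the high animal, followed by mutant 2 and control 3. In spleen the same gene read 5.40 to 6.07 in the 4 controls and 12.49, 11.61, 5.39 and 6.84 in mutants 1 to 4, so mutants 1 and 2 were high in both organs.

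The pancreas list held 14 measured genes, all 14 with a positive difference and with a median of 0.54, yet 0 had an unadjusted p under 0.05. The median level of the list was 4.88, 4.94, 5.64 and 4.80 in controls and 7.62, 5.65, 5.09 and 4.76 in mutants. Without mutant 1 the median difference was 0.05. Of the defining markers, Cpa1 was detected in 3 of 8 testes and Pnlip had no probe.

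Spink8, a secreted protease inhibitor, read 4.60, 4.84, 4.64 and 5.81 in controls and 4.87, 6.38, 5.24 and 7.77 in mutants, a difference of 1.09 (SE 0.51). Mutants 4 and 2 and control 4 were the high animals. Cd52, a surface glycoprotein of lymphocytes and of the epididymis, was chosen after its values were seen and had the same 3 high animals, with 5.23, 5.20, 4.70 and 5.95 in controls and 5.57, 6.46, 5.14 and 7.21 in mutants. Of 12 epididymis genes on the array 2 passed the detection rule, Eppin and Ros1, with list levels of 7.17 to 7.26 in controls and 7.15 to 7.33 in mutants, while Lcn5 and Lcn8 were each detected in 1 of 8 testes and Gpx5 in 0. The part of carried-over tissue in these values was not tested.

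Fat genes had 8 of 9 measured members higher in mutants, with a median of 0.06. Lpl, which releases fatty acids from lipoproteins, read 6.75, 6.77, 6.82 and 6.26 in controls and 7.75, 6.78, 7.45 and 6.80 in mutants, a difference of 0.55 (SE 0.21). Mutants 1 and 3 were high and the other 2 lay within the controls. Adipoq, the fat cell hormone, differed by 0.09 (SE 0.09), and Fabp4 was detected in 0 of 8 testes. Without mutant 4 the list's median difference was 0.00.

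**Figure D5:**
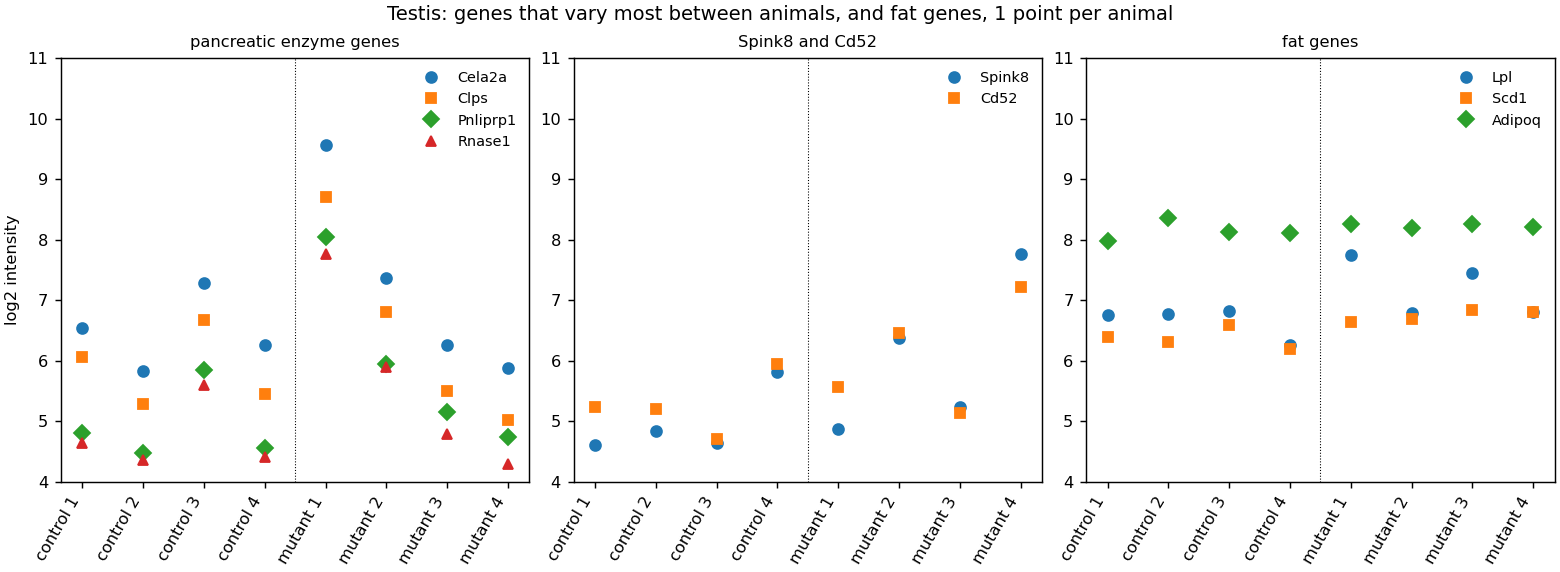
Level in each testis (vertical axis, log2 intensity, same scale in each panel) of 4 pancreatic genes, of Spink8 and Cd52, and of 3 fat genes, with controls left and mutants right of the dotted line. Mutant 1 is the high animal for the pancreatic genes, mutant 4 for Spink8 and Cd52, and mutants 1 and 3 for Lpl.

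Trappc12, a membrane trafficking gene of chromosome 12 that was also chosen after its values were seen, varied by animal alike in both organs. In testis it read 4.70, 5.89, 5.91 and 4.65 in controls and 4.77, 5.69, 4.34 and 6.33 in mutants, and in spleen 4.43, 5.46, 5.48 and 4.69 and 4.75, 5.08, 4.36 and 5.01. Controls 2 and 3 and mutants 2 and 4 were the high animals in both organs, and the testis difference between groups was -0.01 (SE 0.41).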

How the data were processed

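Biotin-labelled cRNA from column-cleaned total RNA was hybridised with 1 animal per array, per the labels' protocols. The authors deposited background-subtracted intensity values with a detection p-value for each probe on each array, per the file headers. The software GenomeStudio 2011.1 appears in the submitters' processing notes. The authors also deposited normalized intensity values whose method is not given in the sources used, which served as an alternative. Before log2 their values under 8 were set to 8, and no other floor was tried. Slide and scan were not given, so no batch could be tested.

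The 8 testis arrays were background corrected and quantile normalized with neqc of limma 3.58.1 (R 4.3.3, offset 16), and fitted with lmFit and eBayes. The offset compresses dim values, so their fold changes are understated. Gene names came from the platform annotation, in which 23978 probes had 1 symbol, 0 symbols changed on update, and 1719 probes had none. The number of arrays limits the precision.

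The genes, the 28 lists and the tests were chosen with earlier results of these data known. Named were the SMC5/6 genes, the 12 higher and 12 lower genes with the smallest p, up to 4 list members with the smallest p and 3 with the highest level, the 10 genes with the largest SD, the 3 neighbours of Smc6 with the smallest p (Rdh14, also measured, was added), the probes past the threshold or with the smallest p in other contrasts, and cell type markers. Replicate numbers did not pair the animals: 0 of 4 same-number correlations exceeded 0.1. Fits were tested on simulated data.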

Additional observations from a re-analysis of the deposited data

Results flagged for a closer look

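The mutant minus control difference of Bclaf3 differed between testis and spleen by 1.107 (log2), the only probe of 10313 past the adjusted threshold of the interaction test. The probe was detected in 1 of 4 control testes, and the call was lost in 8 of 11 alternatives.

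In 31 of 508 groups of 4 animals, or 6.1%, 1 animal stood apart from the other 3 beyond the 95% critical value of Dixon's test. Chance gives about 5% for independent groups not chosen by their values. Many of these genes were named for a small p or a large SD, and some list medians repeat them, so 5% is only a rough guide here. Mutant 4 stood apart most often, 8 times, and mutant 2 never. Mutant 4 read 9.722 and 11.4 on the Cfap69 probes (other mutants 8.984 to 9.018 and 10.83 to 10.89), 7.888 for Ppp1r32, 5.601 for the dim Nsmce2 probe, 5.841 for Large2, 6.428 for Id4, 13.9 for Smcp and 7.87 for Tdrkh. Mutant 1 read 11.22 for Aurka (others 10.72 to 10.77), 9.28 for Cypt2, 14.07 for Hspa2, 14.1 for Ldhc and 11.98 for Piwil1. For Hspa2 and Smcp the other 3 mutants read alike (13.97 and 13.87). Quantile normalization gives the brightest probes nearly the same values on every array, so a small step is flagged there, and the chance figure does not hold for tied values. Mutant 3 read 6.197 for Susd3, 5.517 for Gbp2 and 7.409 for Myh11.

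Among controls, control 1 read 10.63 for Cdc20, a median of 10.93 over the acrosome and fertilisation list, and 23.75% of its signals lay below 0 (others 24.17% to 24.23%). Control 2 read 5.486 for Ccnd2, 9.895 for Spaca4 and 13.59 for Ybx2 (others all 13.71, again a tie). Control 3 read 11.22 for Brdt, 8.443 for Cdk1, 7.386 for Ercc5 (others 7.79 to 7.806), 9.772 for Pias4, and a median of 5.636 over the pancreas list (others 4.799 to 4.941). Control 4 read 5.213 for Aurkc, 5.492 for Fech, 6.261 for Lpl, and 6.261 as the median over the fat list, which is that gene.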

How the results depend on the processing

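The count of 0 calls between mutants and controls held under all 19 alternatives run, including the replicate block (0 calls). The unadjusted count of 629 became 1250 with no filter on dim probes, which tests more probes. The 24 named genes kept their direction in each alternative that measured them, with 0 calls. Since their groups did not overlap, leaving out 1 animal cannot turn the direction. The other alternatives refit the arrays on which these genes were chosen by p, so the kept direction of the 24 genes is no separate support. Their sizes moved by more for dim probes: Tnni3 from -0.16 with an offset of 50 to -1.58 on the deposited normalized values, Bclaf3 from 0.27 to 1.65, Swap70 from -0.18 to -1.40 and Rgs6 from 0.30 to 1.17. Probes beyond 1.5-fold numbered 382 on the deposited values, 9 with an offset of 50, 9 when detected on all 8 arrays, 50 by number of mutant alleles, and 18 to 34 without 1 animal. Without 1 animal, list medians other than that of the pancreas list lay between -0.19 and 0.10. The Smc6 difference was 0.028 in a fit on the number of mutant alleles, and without 1 animal ranged from -0.11 to 0.014, and Smc5 from -0.10 to 0.15. Without 1 animal, calls numbered 0 to 1 for mutants against wild type, 1 to 2 against heterozygous controls and 2 to 3 between controls, where a lone animal is assumed to vary like the others. Apoh lost its call in 9 of 10 alternatives, the dimmer Cfap69 probe on the deposited normalized values, and Bclaf3 in 8 of 11. With no filter, mutants against heterozygous controls had 1 call. The deposited normalized values gave 1, and 1 between controls. The interaction had 0 calls on those values and 0 to 1 without 1 animal. Without 1 animal, the group difference in probes detected ranged from 8.58 to 221, and in signals below 0 from -0.16 to 0.35 percentage points. For probes detected the unadjusted exact permutation p ran from 0.0286 to 0.886. The value of 0.0286, without mutant 4, is the smallest possible in that test, which gave 0.543 with all 8 testes. The causes were not tested. Signal near background limits dim probes.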
